A study of Rattus norvegicus with 10 samples.

Results

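Sccpdh, AABR07073045.1, AABR07046778.1, AC120712.4 and Trim21 are 5 of the 22081 genes counted in rat medial prefrontal cortex (mPFC), taken by name from the table of each rat. They were chosen by their exon reads per rat and by the HC and LC levels in these same data, so their levels in HC and LC rats are given as a description, with no test. "Present or absent" held for 3 of the 5. Sccpdh, AABR07073045.1 and AABR07046778.1 had 3 exon reads or fewer in at least 1 rat and 50 or more in another, while AC120712.4 and Trim21 had at least 29 and 48 exon reads in every rat.

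The study set high cue (HC) against low cue (LC) rats, to ask which mPFC transcripts go with strong cocaine-seeking. All 10 were outbred male Sprague-Dawley rats that self-administered cocaine (0.75 mg/kg per infusion), went through abstinence and had tissue taken on experimental day 27. The 5 HC rats (9, 10, 11, 15 and 16) pressed more than the median for cocaine-paired cues and the 5 LC rats (2, 4, 12, 13 and 14) less, so that the phenotype is a split of outbred animals by behavior. No drug-naive rats are among them. The paper reports a higher total cocaine intake in HC than in LC rats, so phenotype and intake cannot be told apart here. The names of the deposited tables also carry the mark Cue for 6 rats (HC 9, 10 and 11, LC 12, 13 and 14) and NoCue for 4 rats (HC 15 and 16, LC 2 and 4). The sample labels do not carry that mark. The methods describe a second cue test for some rats of each phenotype, and whether the mark names those rats is not stated.

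Short reads (50 bases here) can be assigned to a gene only where they fit a single place in the genome. Genes with a near-identical copy collect reads that fit both places, and outbred animals can differ in their copies, so a deposited count of such a gene depends on how the mapping program shares those reads. Each table therefore gives total exon reads, and among them the unique reads, which fit 1 gene. Sccpdh encodes a saccharopine dehydrogenase-like oxidoreductase found on lipid droplets. Trim21 encodes a cytosolic antibody receptor and ubiquitin ligase of the tripartite motif family, whose gene is induced by interferon. AABR07073045.1, AABR07046778.1 and AC120712.4 are annotated by clone-derived names only.

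The libraries held 11296517 to 26664008 exon reads in HC rats and 12151550 to 23342946 in LC rats. LC rat 2 stood apart, with 28.4% of its exon reads from mitochondrial genes against 7.65% to 12.0% in the other 9 rats, and with a TMM scaling factor of 0.772 against 1.00 to 1.05. It also had the highest CPM (counts scaled to library size, here after TMM scaling) of the 10 rats for 4697 of 14135 genes tested (33.2%). For HC against LC, edgeR called 0 of 14135 genes (0%) at an adjusted p under 0.05, while 246 (1.74%) had an unadjusted p under 0.05. The Wald test of DESeq2 called 0 as well, with 301 at an unadjusted p under 0.05. In bulk tissue fewer cells of a type and less RNA per cell cannot be told apart.

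**Figure D1:**
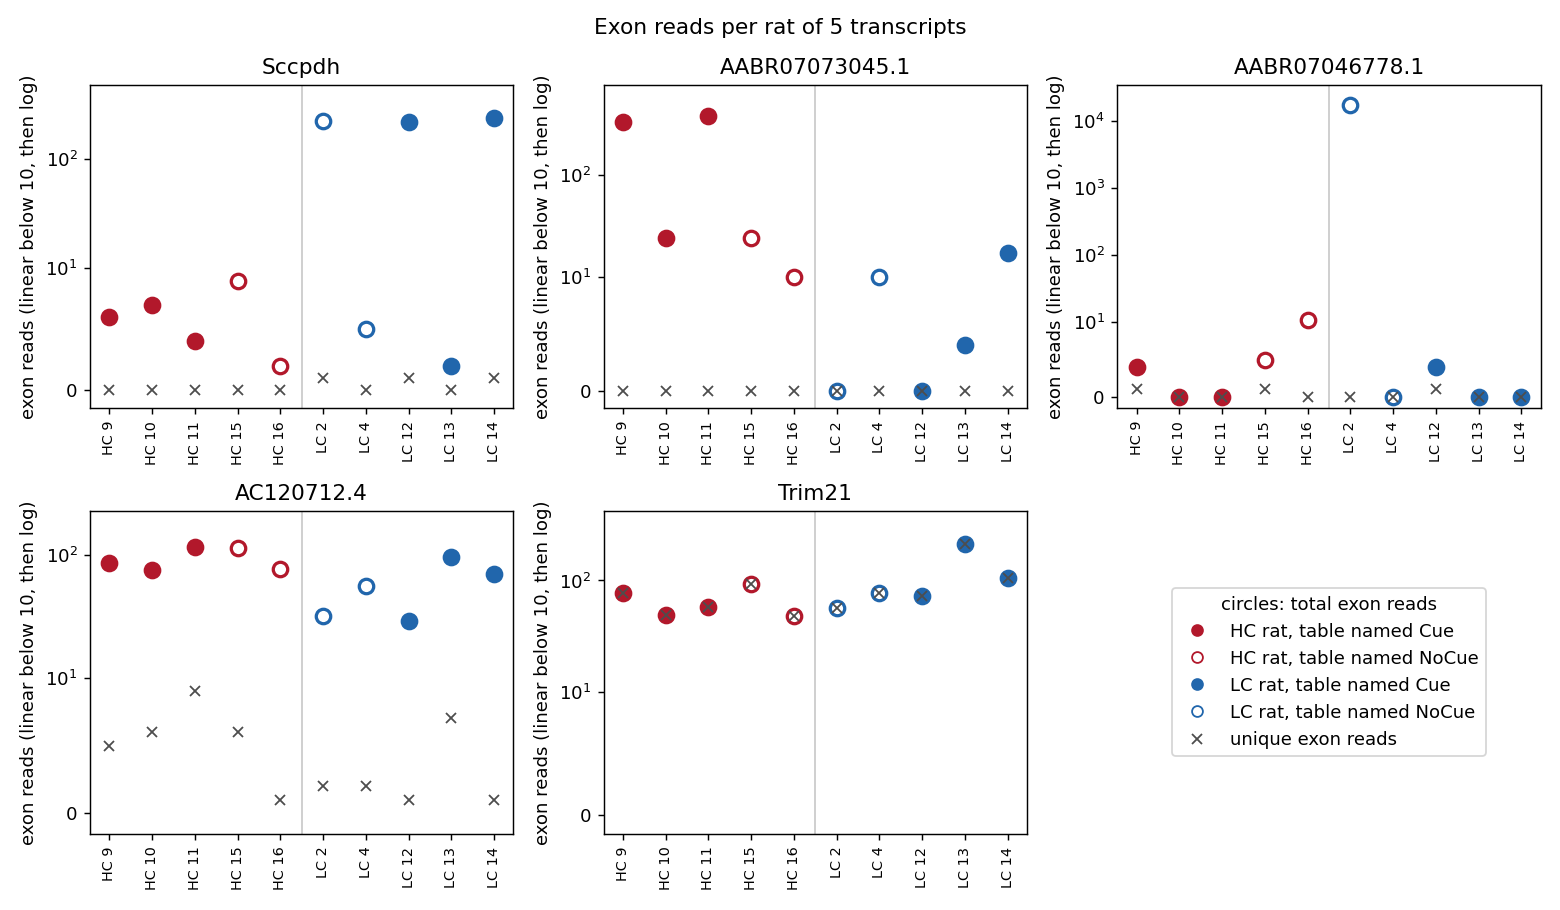
Exon reads of the 5 genes (vertical axis, linear below 10 reads and logarithmic above) in each rat (horizontal axis), with circles for total exon reads and crosses for unique exon reads. Crosses lie at or near 0 for Sccpdh, AABR07073045.1 and AABR07046778.1 and on the circles for Trim21. Sccpdh was above 200 reads in LC rats 2, 12 and 14, and AABR07046778.1 reached 17173 reads in LC rat 2.

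Sccpdh was read at a high level in 3 LC rats and at a trace in the other 7 rats. Its total exon reads were 6, 7, 4, 9 and 2 in HC rats 9, 10, 11, 15 and 16, against 225, 5, 220, 2 and 238 in LC rats 2, 4, 12, 13 and 14. LC rats 2, 12 and 14 were far above the rest, and LC rats 4 and 13 lay among the HC rats, so the phenotypes overlapped. The level was 0.320 ± 0.161 CPM in the 5 HC rats, against 10.00 ± 9.91 CPM in the 5 LC rats (mean ± SD), and the gene did not pass the filter on low counts. Without that filter edgeR gave a log2 fold change of -4.94 (SE 1.17).

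Nearly all of the Sccpdh reads were shared with another place in the genome. Of 718 exon reads 3 were unique (0.418%, exact 95% interval 0.0862% to 1.22%), 1 each in LC rats 2, 12 and 14, which were the rats with 220 to 238 total reads. Reads that crossed an exon junction numbered 53, 33 and 49 in these rats and 0 to 2 in each of the others. Intron reads numbered 37, 14 and 19 in LC rats 2, 12 and 14, 2 in LC rat 4 and 0 in the remaining rats, and none of the 72 was unique. Exon, junction and intron reads thus marked the same animals. They are not separate evidence, because junction reads are among the exon reads and nearly all of these reads were shared. The intervals and limits given for shares cover counting error only.

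A second annotated gene on the same chromosome, LOC103689999, mirrored Sccpdh in structure. It was looked up after the values had been seen. In Rnor_6.0 Sccpdh lies at chr13:97941757-97963824 on the plus strand, with 12 exons over 22068 bases, and LOC103689999 lies at chr13:97702097-97724153 on the plus strand, with 12 exons over 22057 bases. None of the 13701 exon reads of LOC103689999 was unique, which allows a share of up to 0.0219%.

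Sccpdh and LOC103689999 together were level between rats. Their summed exon reads were 76.1, 91.6, 89.1, 87.0 and 81.9 CPM in HC rats 9, 10, 11, 15 and 16, against 60.6, 75.2, 90.7, 74.5 and 86.6 CPM in LC rats 2, 4, 12, 13 and 14. The phenotypes overlapped in the sum, which averaged 85.2 ± 6.17 CPM in the 5 HC rats, against 77.5 ± 11.8 CPM in the 5 LC rats (mean ± SD). The log2 ratio of the HC to the LC mean was 0.14 for the sum.

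What varied was the share of the sum given to Sccpdh. It was 0.213% to 0.629% in the HC rats. Among LC rats it was 35.8% in rat 2, 19.9% in rat 12 and 11.4% in rat 14, but 0.451% in rat 4 and 0.113% in rat 13. In introns the Sccpdh share was 38.1%, 10.7% and 8.37% in LC rats 2, 12 and 14, and 0% in every HC rat. The deposited count of Sccpdh is therefore uncertain as a measure of that gene alone, and what differed between the animals at these loci was not tested.

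**Figure D2:**
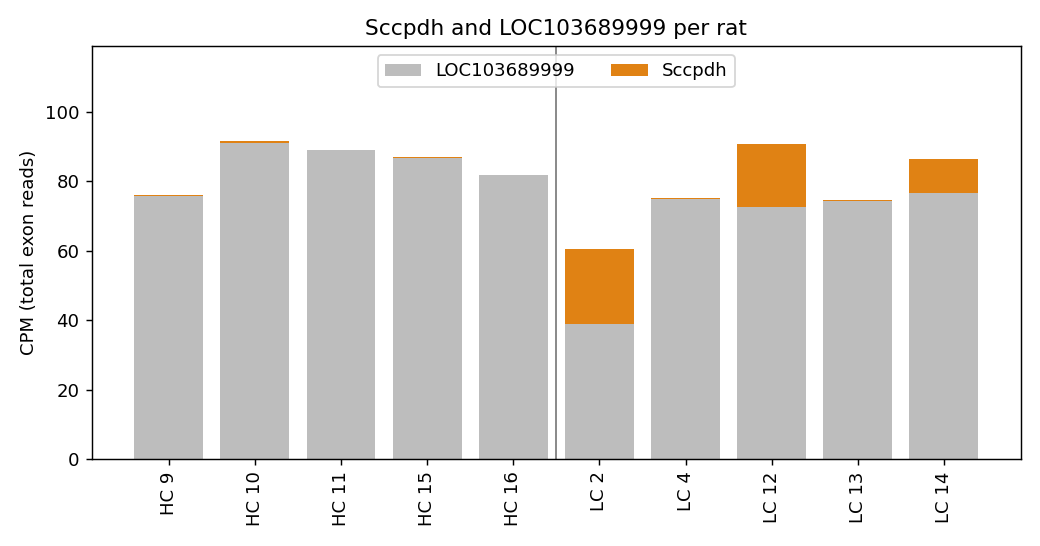
CPM of total exon reads (vertical axis) in each rat (horizontal axis), stacked for LOC103689999 (grey) and Sccpdh (orange). The sum ranged between 60.6 and 91.6 CPM over the 10 rats, and an orange share above 10% stands in LC rats 2, 12 and 14.

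The genes around Sccpdh had unadjusted p above 0.05, where only 1.74% of all genes tested were under it. Tfb2m, a mitochondrial transcription factor, and Cnst lie before it, and Ahctf1 and Cdc42bpa after it. Their log2 fold changes between HC and LC rats were -0.19 (SE 0.10) for Tfb2m, 0.08 (SE 0.09) for Cnst, -0.06 (SE 0.08) for Ahctf1 and -0.08 (SE 0.11) for Cdc42bpa. At least 97.9% of the exon reads of each were unique.

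AABR07073045.1 was high in 2 HC rats and low or unread elsewhere. Its total exon reads were 323, 24, 375, 24 and 10 in HC rats 9, 10, 11, 15 and 16, against 0, 10, 0, 4 and 17 in LC rats 2, 4, 12, 13 and 14. HC rats 9 and 11 stood apart from the other 8 rats. In CPM every HC rat (0.871 to 17.8) was above every LC rat (0 to 0.703), but the 3 lower HC rats were at most at 1.98 CPM. The groups averaged 7.85 ± 9.07 CPM in the 5 HC rats, against 0.310 ± 0.354 CPM in the 5 LC rats (mean ± SD), with a log2 fold change of 4.48 (SE 1.10).

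No read of AABR07073045.1 was unique. It is a single exon of 466 bases at chr4:120413653-120414118 on the minus strand (Rnor_6.0), and 0 of its 787 exon reads were unique, which allows a share of up to 0.381%. It lies inside Ruvbl1, an ATPase of chromatin remodelling complexes, which is annotated on the plus strand at chr4:120411991-120447455 and had 56.2% unique exon reads. The library kit keeps strand, but whether the counting used strand is not stated, so reads of these overlapping genes are uncertain. Ruvbl1 was level, at 25.9 ± 1.74 CPM in the 5 HC rats, against 26.0 ± 1.32 CPM in the 5 LC rats (mean ± SD), with a log2 fold change of -0.002 (SE 0.074).

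The flanking genes of AABR07073045.1 also had unadjusted p above 0.05, where only 1.74% of all genes tested were under it. Their log2 fold changes were -0.31 (SE 0.27) for Gata2, a transcription factor gene, -0.05 (SE 0.08) for Eefsec, 0.10 (SE 0.11) for Sec61a1, a subunit of the protein translocation channel, and 0.10 (SE 0.11) for Mgll, which encodes monoacylglycerol lipase. In HC rats 9 and 11 the non-unique reads of Ruvbl1 were 10.5 and 12.6 CPM, within the 10.3 to 13.6 CPM of all 10 rats.

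AABR07046778.1 was carried by a single rat. It had 17173 exon reads in LC rat 2, and 0, 4, 0 and 0 in LC rats 4, 12, 13 and 14, while HC rats 9, 10, 11, 15 and 16 had 4, 0, 0, 5 and 11. LC rat 2 thus reached 1653.67 CPM where the other 9 rats had at most 0.958 CPM. Among 13115 genes with 50 or more reads in their highest rat, AABR07046778.1 had the widest spread between rats (SD of log2 CPM 4.24, rank 1). Sccpdh had rank 13 and AABR07073045.1 rank 16, against rank 1177 for AC120712.4 and rank 1308 for Trim21.

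The AABR07046778.1 reads were non-unique in the rat that carried them. The gene is a single exon of 267 bases at chr5:6373583-6373849 on the plus strand (Rnor_6.0). Of its 17197 reads 3 were unique (0.0174%, exact 95% interval 0.00360% to 0.0510%), 1 each in HC rats 9 and 15 and LC rat 12, and none in LC rat 2. Its mean in LC rats rests on LC rat 2: the log2 ratio of the HC to the LC mean was -10.25 with that rat and 1.73 without it.

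A gene that fell in the same rat was AABR07015057.1, picked out after the values had been seen. This gene lies on the minus strand at chr14:46523594-46529375 (Rnor_6.0), and 68 of its 196655 exon reads were unique (0.0346%). It had 2656 exon reads in LC rat 2, against 13304 to 31430 in the other 9 rats. Its intron reads were lowest there too, at 4062 against 24807 to 59340, while AABR07046778.1 had no intron reads in any rat. Whether the 2 genes share sequence was not tested, and how many of all genes fell in LC rat 2 was not counted. The summed reads of AABR07046778.1 and AABR07015057.1 were 1909.42 CPM in LC rat 2 and 630.0 to 1504.85 CPM in the others, and AABR07046778.1 made up 86.6% of the sum in LC rat 2. The high mitochondrial share and low scaling factor of LC rat 2 given above stand beside this value, and their part in it was not tested.

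**Figure D3:**
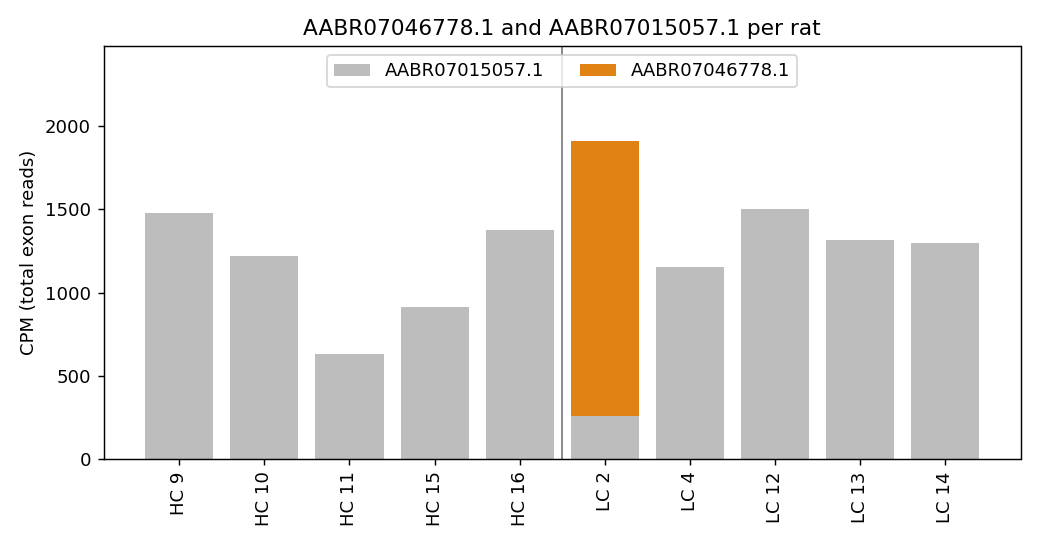
CPM of total exon reads (vertical axis) in each rat (horizontal axis), stacked for AABR07015057.1 (grey) and AABR07046778.1 (orange). AABR07046778.1 is visible in LC rat 2 alone, where it made up 86.6% of the sum and where AABR07015057.1 had its lowest count, 2656 reads.

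The genes around AABR07046778.1, which lie 187 to 1254 kb from it, were measured mostly by unique reads. These neighbours had log2 fold changes between HC and LC rats of 0.08 (SE 0.06) for Ncoa2, a nuclear receptor coactivator, 0.01 (SE 0.41) for Sulf1, a heparan sulfate sulfatase, -0.12 (SE 0.09) for RGD1564053 and 0.17 (SE 0.15) for Prex2. Their unadjusted p were all above 0.05, where only 1.74% of all genes tested were under it. At least 88.4% of their reads were unique.

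AC120712.4 was read in all rats, over a far narrower range than the 3 genes above. Its exon reads were 86, 76, 116, 115 and 78 in HC rats 9, 10, 11, 15 and 16, against 32, 56, 29, 97 and 70 in LC rats 2, 4, 12, 13 and 14. After scaling, every HC rat (4.18 to 6.79 CPM) was above every LC rat (2.38 to 4.07 CPM), with a narrow gap between HC rat 15 and LC rat 13. The means were 5.49 ± 1.07 CPM in the 5 HC rats, against 3.25 ± 0.686 CPM in the 5 LC rats (mean ± SD), and the log2 fold change was 0.74 (SE 0.19).

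The exon and intron reads of AC120712.4 gave different pictures. It has 5 exons at chr1:94793195-94810667 on the plus strand (Rnor_6.0). Of its 755 exon reads 40 were unique (5.30%, exact 95% interval 3.81% to 7.14%), whereas 757 of 1118 intron reads were (67.7%). Intron reads were 204, 60, 99, 149 and 124 in HC rats 9, 10, 11, 15 and 16, and 117, 27, 60, 243 and 35 in LC rats 2, 4, 12, 13 and 14.

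The phenotypes overlapped in the introns of AC120712.4, at 7.42 ± 3.30 CPM in the 5 HC rats, against 5.93 ± 4.60 CPM in the 5 LC rats (mean ± SD). They overlapped too in unique exon reads, of which every rat had 1 to 9, at 0.300 ± 0.163 CPM in the 5 HC rats, against 0.149 ± 0.0989 CPM in the 5 LC rats (mean ± SD). With exon and intron reads added, HC rats had 9.60 to 17.6 CPM and LC rats 4.34 to 14.3 CPM, and the log2 fold change was 0.49 (SE 0.32). The unique exon reads, 27 in HC rats and 13 in LC rats, went in the direction of the total, but they are too few to say how much of the difference belongs to this gene, and its total count is uncertain.

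Of the genes around AC120712.4, AABR07003056.1, which lies 587 kb away, had the lowest p of the 20 neighbours tested here. Its level was 1.44 ± 0.771 CPM in the 5 HC rats, against 3.18 ± 1.38 CPM in the 5 LC rats (mean ± SD), with a log2 fold change of -1.07 (SE 0.43, unadjusted p = 0.027 and adjusted p = 0.885 by edgeR). None of its reads was unique. Pop4, a subunit of ribonuclease P, had a log2 fold change of -0.16 (SE 0.12), Uqcrb_1 of -0.10 (SE 0.08) and Vstm2b, 2822 kb away, of 0.18 (SE 0.12).

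Trim21 was the member whose exon reads were all its own. All 848 exon reads were unique (100%, exact 95% lower limit 99.6%), over 13 exons at chr1:167686173-167708714 on the minus strand (Rnor_6.0). They numbered 77, 49, 58, 92 and 48 in HC rats 9, 10, 11, 15 and 16, against 57, 77, 72, 212 and 106 in LC rats 2, 4, 12, 13 and 14. LC rat 13 was the highest by count and by CPM.

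In CPM Trim21 was 4.24, 4.04, 2.75, 3.35 and 4.18 in HC rats 9, 10, 11, 15 and 16, against 5.49, 5.22, 5.91, 8.90 and 4.38 in LC rats 2, 4, 12, 13 and 14. Every HC rat was below every LC rat, the closest being HC rat 9 and LC rat 14. The means were 3.71 ± 0.646 CPM in the 5 HC rats, against 5.98 ± 1.72 CPM in the 5 LC rats (mean ± SD), with a log2 fold change of -0.70 (SE 0.21). Scaled by library size alone the groups overlapped, at 2.88 to 4.47 CPM in HC rats and 4.23 to 9.14 CPM in LC rats. Intron reads were few, 4 to 6 in HC rats and 3, 3, 5, 9 and 24 in LC rats 4, 12, 14, 2 and 13. Of these 70 intron reads 51 were unique (72.9%).

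Counted together, 3 of the 5 members had phenotypes that did not overlap in CPM (AABR07073045.1 and AC120712.4 higher in HC rats, Trim21 lower), where 0.439% of all genes tested had none (29 higher, 0.205%, and 33 lower, 0.233%). The members were chosen with this contrast known, so nothing is read from that count. Unique exon reads give no separate view of it: for Trim21 they are the same reads, AABR07073045.1 had none and AC120712.4 had few.

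LC rat 13 was also high for interferon response genes. The list held 25 genes and 23 were tested, of which 15 had their highest CPM in LC rat 13, against 1254 of all 14135 genes tested (8.87%). The summed level of the list was 530.7 CPM in LC rat 13 and 324.8 to 412.5 CPM in the other 9 rats.

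The genes furthest above the other animals included Rsad2, which encodes the antiviral protein viperin, at 23.3 CPM in LC rat 13 and 1.35 to 2.44 CPM in the others. Mx1, an antiviral GTPase, was at 16.5 CPM in LC rat 13 and 0.771 to 2.11 CPM in the others. Irf7, a transcription factor of the interferon response, was at 10.7 CPM in LC rat 13 and 1.15 to 2.53 CPM in the others. Others of the list did not stand out: Irf1, Irf8 and B2m in LC rat 13 lay within the range of the other rats. The part of these values in the Trim21 level of LC rat 13 was not tested.

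Without LC rat 13, Trim21 had a log2 fold change of -0.50 (SE 0.17), and its LC mean was 5.25 ± 0.644 CPM (SD, n = 4). Leaving out a rat cannot make groups overlap that were apart, so nothing is read from the gap that remained. The median log2 fold change of the interferon list was -0.20 with LC rat 13 and 0.11 without it, beside 0.005 and 0.008 over all genes tested. No list gene had an adjusted p under 0.05. Of the 23, 0 were higher and 2 lower in HC rats at an unadjusted p under 0.05, Ifit2 at a log2 fold change of -0.96 (SE 0.39, unadjusted p = 0.033 by edgeR) and Ifit3 at -1.70 (SE 0.77, unadjusted p = 0.048 by edgeR), where 0.722% of all genes tested were higher and 1.02% lower. Without LC rat 13, 0 of the 23 passed that threshold in edgeR, where 634 of 14113 genes (4.49%) did. Both encode interferon-induced proteins with tetratricopeptide repeats.

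**Figure D4:**
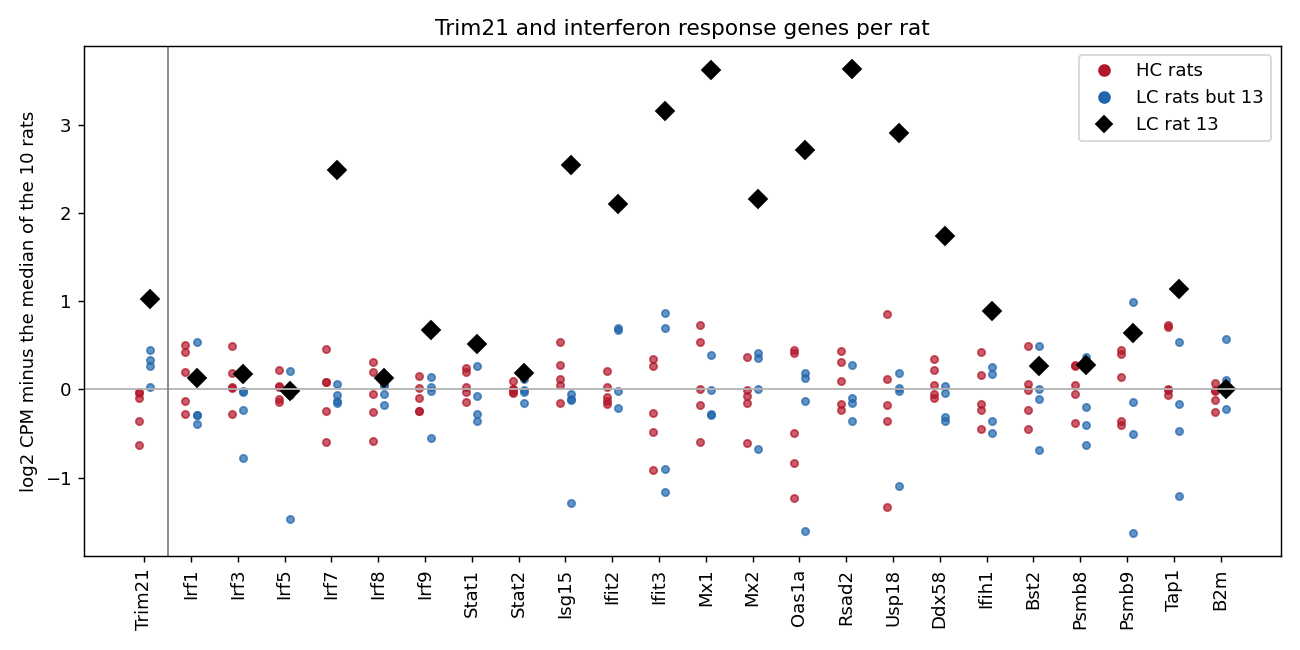
Log2 CPM of Trim21 and of the 23 tested interferon response genes (horizontal axis), each relative to the median of the 10 rats (vertical axis), with HC rats in red, LC rats in blue and LC rat 13 as black diamonds. LC rat 13 was highest for Trim21 and for 15 of the 23 genes.

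The promoter of Trim21 holds letters of the kind found in interferon-responsive promoters. RefSeq's promoter table for the GRCr8 build holds 250 bases before and 50 after each start. It was searched on both strands for GAAANNGAAA, the core of an interferon-stimulated response element. The Trim21 promoter (chr1:166399322-166399621, minus strand) has 2 overlapping matches that begin 18 bases before the start. Windows of 30 bases, read 5′ to 3′ on the strand of the gene, are shown for Trim21 and for list genes that were highest in LC rat 13, with the matches in capitals (those of the other strand read TTTCNNTTTC).
Trim21: cctctgagagGAAACTGAAAGTGAAAttag
Oas1a: cccctctcggGAAATGGAAACTGAAAatct
Ifih1: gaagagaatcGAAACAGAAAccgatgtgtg
Ifit3: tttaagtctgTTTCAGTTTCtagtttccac
Irf7: acagtttaggTTTCATTTTCccgagacgca
Rsad2: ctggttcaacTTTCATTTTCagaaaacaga
Tap1: cggtggctgcTTTCGGTTTCttcttcctct

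Trim21 and Oas1a both have 16 bases in capitals, where a pair of matches overlaps. Bst2, a list gene that was not highest in LC rat 13, has such a pair as well. Its level was 4.95 CPM in LC rat 13 and 2.50 to 5.84 CPM in the others. B2m and Psmb8 have a match too and were not highest in LC rat 13. The matches were found in 9 of the 18 interferon list promoters in the table (50%) and in 2 of 29 promoters of the TRIM list (6.90%), against 1034 of all 27457 promoters (3.77%). A match is a stretch of letters and no measure of binding. Sccpdh has no match in its window, and the other members were not matched to the table.

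Genes that work with or resemble Trim21 and Sccpdh had no member past an unadjusted p of 0.05 between HC and LC rats. That held for 32 tested genes of the TRIM family (median log2 fold change 0.03), for 7 genes whose products act with TRIM21 in ubiquitin transfer and degradation, such as Ube2n, Ube2v2 and Vcp (median -0.12), for 9 genes of lysine breakdown, such as Aass and Aldh7a1 (median 0.04), and for 11 genes of lipid droplet proteins, such as Plin2 and Pnpla2 (median 0.01). Over all genes tested 0.722% were higher and 1.02% lower at that threshold. Trim68, which neighbours Trim21, had a log2 fold change of -0.11 (SE 0.13). Of the other neighbours, Stim1 was at 0.05 (SE 0.08) and Rrm1, a subunit of ribonucleotide reductase, at -0.04 (SE 0.08), while AC098008.1 was not tested, with at most 6.26 CPM in any rat.

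The tissue carried the markers of cortex. The 5 markers of cortical excitatory neurons summed to 2177 to 2409 CPM in HC rats and 1703 to 2447 CPM in LC rats. Medians of the log2 fold change were -0.07 for these markers, -0.65 for 6 striatal markers, -0.04 for microglia, -0.03 for oligodendrocytes, -0.002 for astrocytes, 0.24 for blood, -0.22 for 2 tested choroid plexus markers and -0.05 for the 1 tested marker of T and B cells. Of these markers Adora2a, a striatal adenosine receptor, had an unadjusted p under 0.05 (log2 fold change -1.33, SE 0.57, unadjusted p = 0.038 by edgeR), as did 1.74% of all genes tested. LC rat 4 carried the striatal values: it was highest for all 6 markers, with a sum of 554.2 CPM against 227.3 to 290.2 CPM in the other 9 rats, and with Adora2a at 28.9 CPM against 3.23 to 5.49 CPM. Without LC rat 4 the striatal median was -0.14 and Adora2a had a log2 fold change of -0.23 (SE 0.17, unadjusted p = 0.209 by edgeR). With single rats left out, the medians of the other marker lists lay between -0.55 and 0.35. The striatal markers of LC rat 4 stand beside the members' levels in that rat, and their part in the members' levels was not tested. In LC rat 13 the microglial markers summed to 152.6 CPM, within the 139.4 to 176.1 CPM of the other rats, and those of T and B cells to 8.27 CPM, within 4.88 to 10.1 CPM.

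By the Cue or NoCue mark no member was apart over all rats, which is near the share over all genes, so nothing is read from it. For 0 of the 5 were all Cue rats above or all below the NoCue rats, where 2.06% of 14254 genes were (1.17% above and 0.884% below), and edgeR called 0 genes (0%) at an adjusted p under 0.05 and 1408 (9.88%; 4.36% higher and 5.52% lower in Cue rats) at an unadjusted p under 0.05. The Wald test of DESeq2 called 40. Sccpdh was high in rats of both marks, with 220 and 238 reads in the Cue rats LC 12 and LC 14, against 225 in the NoCue rat LC 2. The 2 rats high for AABR07073045.1, HC 9 and HC 11, are marked Cue, but LC rat 12 with 0 reads is too. Within HC rats, Cue rats 9, 10 and 11 (17.8, 1.98 and 17.8 CPM) were above NoCue rats 15 and 16 (0.873 and 0.871 CPM). Within LC rats the marks overlapped, at 0, 0.168 and 0.703 CPM in Cue rats 12, 13 and 14, against 0 and 0.678 CPM in NoCue rats 2 and 4. The log2 fold difference, Cue over NoCue with phenotype in the fit, was 2.87 (SE 1.10) for AABR07073045.1, -0.05 (SE 0.20) for AC120712.4 and 0.12 (SE 0.22) for Trim21.

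Read counts near 0 in some rats and high in others were uncommon in these data, and went with shared reads. Of 13115 genes with 50 or more exon reads in the highest rat, 141 (1.08%) had 3 or fewer in the lowest. Fewer than 10% of the exon reads were unique for 98 of these 141 genes (69.5%), against 687 of the 13115 genes (5.24%). Sccpdh, AABR07073045.1 and AABR07046778.1 are among the 98.

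The 141 genes were spread unevenly over the rats in which they were highest. HC rat 15, with the most exon reads, held 38, and HC rat 16, with the fewest, held 0. LC rat 2 held 24, all of them with fewer than 10% unique reads, although its 13472319 exon reads are below the median of the 10 libraries. Counting unique reads alone, the share of genes with such a pattern was 0.307%. A lower share was largely set in advance, because genes with few unique reads seldom reach 50 of them.

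**Figure D5:**
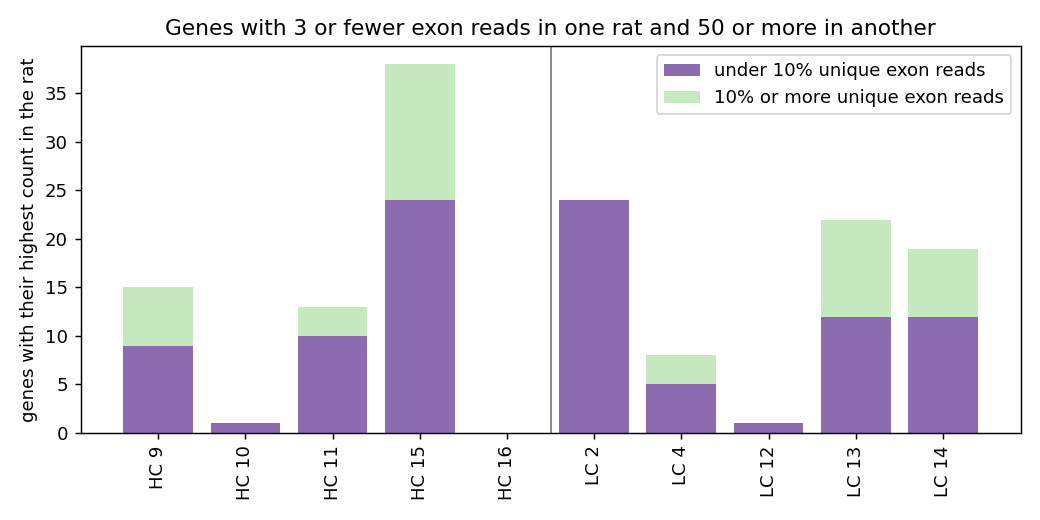
Number of genes (vertical axis) with 3 exon reads or fewer in the lowest rat and 50 or more in the highest, by the rat in which each was highest (horizontal axis). Purple marks genes with fewer than 10% unique exon reads and green the rest, and the 24 genes of LC rat 2 are all purple.

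The order of the 10 rats was compared with that of every other gene tested, by the sum of differences in CPM rank (0 for the same order, 50 at most, and a median of 32 to 34 over genes). AC120712.4 was closest in order to Pdzk1 (8) and Cog8 (10, shared by 4 genes), and Trim21 to Cox6c and Triap1 (10 each). Their CPM varied 1.25-fold to 1.96-fold between rats, and none lies on the chromosome of its member.

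For Sccpdh the sum was lowest with Yju2 (6) and Bbs5 (8, shared by 12 genes), and for AABR07073045.1 with Spint1 (5) and Hexd (7). The order of most rats for these members rests on trace counts, 2 to 9 reads of Sccpdh in 7 rats and 0 to 24 reads of AABR07073045.1 in 8 rats, so these closest genes are named by rule and nothing is read from them. AABR07046778.1 had 0 reads in 5 rats and 4 to 11 in 4 others, which gives no order to compare.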

How the data were processed

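RNA of the mPFC of 5 HC and 5 LC rats was sequenced, 1 library per rat, as single-end reads. Per the labels and methods, the authors trimmed the reads, mapped them with the CLC Genomics Workbench to Rnor_6.0 and deposited, per gene and rat, counts of total and unique exon, intron and gene reads, and RPKM values, which scale exon reads by exon length and depth and were not tested here. How CLC shared non-unique reads, and whether it counted by strand, was not given in the sources used here. The authors' table of their own HC and LC comparison (fold changes and p-values) was not used.

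Total exon reads were tested in R 4.3.3 with edgeR 4.0.16 (quasi-likelihood test, filterByExpr, TMM, Benjamini-Hochberg adjustment over all genes tested). Cue against NoCue was fitted with phenotype as covariate, from the mark in the table names. The fit was tested on simulated data. Alternatives were DESeq2 1.42.0 size factors and Wald test, library size alone, no filter, unique or gene reads, the mark as covariate, and each rat left out. Named genes were the members, the 2 nearest genes on each side with a mean of at least 10 reads, overlapping genes, the 2 genes closest in rank order (not given for AABR07046778.1, with 0 reads in 5 rats), and list genes with an unadjusted p under 0.05; further list genes, LOC103689999 and AABR07015057.1 were chosen after their values were seen. The members and lists (13, including cell type markers, interferon response, TRIM family, TRIM21 partners, lysine breakdown and lipid droplet proteins) were chosen with earlier results of these data known. Shares have Clopper-Pearson intervals, and a count of 0 was taken to allow 3. Promoters came from RefSeq (GRCr8), matched by symbol for 2 of the 5 members.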

Additional observations from a re-analysis of the deposited data

Results flagged for a closer look

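Of the members' levels within each phenotype, 2 had a highest rat far from the rest, both for AABR07046778.1. LC rat 2 was at 1653.67 CPM, while the other LC rats were at 0 to 0.328 CPM, and the gap made up nearly the whole range. HC rat 16 was at 0.957767 CPM, while the other HC rats were at 0 to 0.220 CPM, a difference that rests on 11 reads. The limit passes about 1 in 20 groups by chance, but these members were chosen by their exon reads per rat. That rate therefore does not hold here, and nothing is read from the flags.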

How the results depend on the processing

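No paired analysis was possible because each rat has its own number and HC and LC rats share none. Genes called for HC against LC stayed at 0 under all 17 alternatives. For Cue against NoCue the count was 0 except under the Wald test of DESeq2 (40) and without LC rat 2 (18), a range of 0 to 18 with single rats left out. Genes without overlap between HC and LC numbered 62, and 98 to 206 with single rats left out, where fewer rats are compared. The share of present or absent genes was 1.08%, 3.70% with a highest rat of at least 20 reads, 0.576% with at least 100, and 0.307% in unique exon reads. The log2 fold changes of AABR07073045.1 (3.94 to 5.08), AC120712.4 (0.49 to 0.84) and Trim21 (-0.80 to -0.50) kept their direction under every alternative that could be fitted. With single rats left out that direction was set in advance, because the groups of these members did not overlap in CPM. With unique exon reads AABR07073045.1 and AC120712.4 could not be fitted. With no filter the median of the T and B cell list was 0.83. The sums of Sccpdh and AABR07046778.1 with a second gene were chosen after seeing the data and gave log2 ratios of 0.14 and -0.35, and without LC rat 2 AABR07046778.1 gave 1.73. Depth limits the trace counts: at 2 to 9 Sccpdh reads, rats cannot be ordered.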
